A study of Mus musculus with 8 samples.

Results

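The cells described here were Eomes-expressing cells of the mouse embryonic cortex in which no transcript of the division genes Mki67 and Top2a was seen. They were chosen by their counts of unique molecular identifiers (UMIs), each of which marks 1 captured transcript. Cells were droplet barcodes with 2300 or more UMIs and 800 or more genes seen, in which mitochondrial genes gave no more than 10% of UMIs. A cell was a member with at least 2 Eomes UMIs and 0 UMIs of Mki67, Top2a, Olig1, Olig2, Dlx1 and Dlx2. This gave 1166 members among 15547 cells (7.50%), of which 595 came from wild type and 571 from ShhN cortex. Single-cell RNA-seq libraries had been made from CD1 cortices at embryonic day 16.5. Of the samples, 4 were wild type littermates and 4 had received a ShhN plasmid by in utero electroporation at E13.5. ShhN is the signalling fragment of the secreted protein sonic hedgehog (SHH), and electroporation brings plasmid into progenitors that line the ventricle. Sources used here give neither the promoter of the plasmid, nor the share of cells that took it up, nor whether the littermates received a control plasmid. The 4 samples of a group were held in 1 matrix with no map from cells to embryos, so no test between groups was possible and no difference has a replicate check.

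Intermediate progenitors are the daughters of radial glia, the stem cells of the cortex. They move into the subventricular zone, switch on the T-box factor Eomes, divide few times and give rise to glutamatergic neurons. Their entry is driven by proneural factors such as Neurog2, and they leave the state by switching on neuronal genes such as Neurod1 and Neurod6. SHH acts by relieving the inhibition of Smo by its receptor Ptch1. Gli factors then induce Gli1, Ptch1, Hhip and, in many progenitors, D cyclins.

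The wild type library held 63760199 UMIs in all and the ShhN library 69470062, with 7233 and 8314 cells. The median member carried 5843 UMIs and 2304 genes in wild type, and 5914 UMIs and 2242 genes in ShhN cortex. No barcode was shared by members of both libraries, while 79 were shared among all cells. A doublet caller marked 40 wild type and 33 ShhN members. Eomes (chromosome 9, 118478212 to 118486132, GRCm38), which the rule used, stood at 679 CPM (UMIs scaled to a fixed total of 1000000) in wild type members and 618 in ShhN members, against 22.6 and 48.8 in all other cells. Mfap4, a matrix protein gene of these progenitors, stood at 461 CPM in wild type members and 42.9 in other cells. Neurog2 stood at 334 against 32.6 CPM, and Sstr2, a somatostatin receptor, at 306 against 68.7 CPM. In the ShhN library the same 3 markers stood at 253, 284 and 314 CPM in members and at 40.2, 57.5 and 93.2 CPM in other cells. All 4 markers were thus higher in members than in other cells of both libraries, as a description of cells selected on Eomes. The word non-dividing rests on 2 genes, and transcripts of DNA replication were frequent in these cells, as described below.

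The members just inside the Eomes threshold, with 2 UMIs, numbered 138 in wild type and 157 in ShhN cortex. Cells just outside it, with 1 Eomes UMI and otherwise within the rule, numbered 276 and 329. Mfap4 stood at 391 CPM inside and 210 outside in wild type, and at 196 and 124 CPM in ShhN cortex. Neurod6, a gene of young excitatory neurons, stood at 1104 CPM inside and 1346 outside in wild type, and at 1224 and 1521 in ShhN cortex. Members with 6 or more Eomes UMIs had the most Sox2, a progenitor factor, of these classes, with 163 CPM in wild type and 130 in ShhN cortex. Eomes UMIs ranged up to 17 in a wild type member and 19 in a ShhN member, with a median of 4 in both.

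Members made up a smaller share of the ShhN cells although Eomes cells as a whole made up a larger one. Cells with at least 2 Eomes UMIs were 10.4% [9.70, 11.1] of cells in wild type and 12.7% [11.97, 13.4] in ShhN cortex (exact Clopper-Pearson 95% intervals). Of these Eomes cells, 118 of 752 (15.7% [13.2, 18.5]) carried a Mki67 or Top2a UMI in wild type, against 435 of 1054 (41.3% [38.3, 44.3]) in ShhN cortex. An Olig1, Olig2, Dlx1 or Dlx2 UMI was carried by 47 (6.25%) and 101 (9.58%). What remained were the members, at 8.23% [7.60, 8.88] of the cells in wild type and 6.87% [6.33, 7.43] in ShhN cortex. The ratio of the shares was 0.835. These intervals hold the error of counting and leave out any spread between embryos or dissections. The ratio was 1.02 when members with a UMI of the medial pallium genes Rspo3, Wnt5a, Lef1, Prox1 or Nr2f2 were left out. These genes were grouped after they were seen to be lower in ShhN members, and 39.0% of wild type and 25.6% of ShhN members carried one, so leaving those out raises the ratio by construction.

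**Figure D1:**
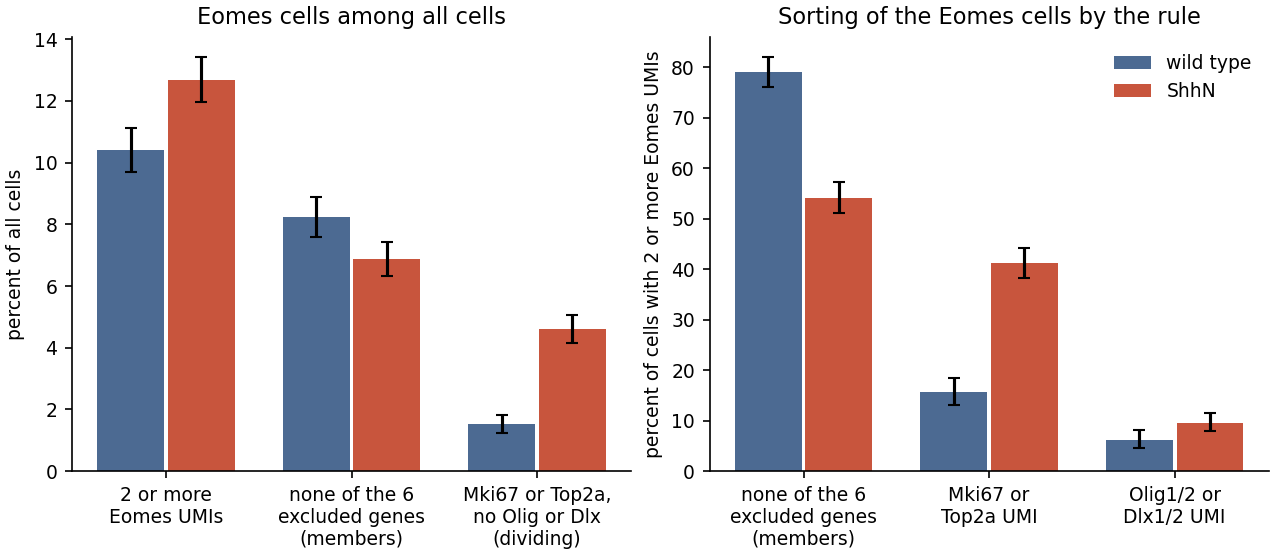
Left, percent of all cells with at least 2 Eomes UMIs, of members (none of the 6 excluded genes) and of Eomes cells with a Mki67 or Top2a UMI but no Olig or Dlx UMI. Right, percent of the cells with at least 2 Eomes UMIs that were members, carried Mki67 or Top2a, or carried an Olig or Dlx gene. Bars are 1 library each and error bars are exact 95% binomial intervals. Members were 79.1% of Eomes cells in wild type and 54.2% in ShhN cortex.

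Transcript levels were compared on UMIs summed over the members of each library. A gene was measured with at least 20 UMIs over both libraries. To pass the size rule it needed 50 or more UMIs, a log2 ratio of ShhN over wild type of at least 1 in size, and the nearer bound of its exact 95% counting interval at least 0.5 in size. Of 10480 measured genes outside the rule genes, 60 (0.573%) passed as higher in ShhN members and 78 (0.744%) as lower, with a median log2 ratio of -0.08. With trimmed mean (TMM) scaling, which moves every log2 ratio up by 0.09, 77 passed as higher and 51 as lower. Among the 12 highest were Shh, its target Ptch1, the Notch and SHH effector Hes1, and the cell cycle and replication genes Cdk6, Ccnd2, Uhrf1, Ung, Mcm4 and Timeless. Lmcd1, Mthfd2 and B2m were also there, outside these groups. Among the 12 lowest were Reln and Calb2 of Cajal-Retzius cells, Nr2e1 of radial glia, Nrarp of Notch signalling and the adhesion molecule Vcam1. Plch2, Adgra1, Nrxn3, Ndst1 and Kif26b, also among the lowest, were outside these groups.

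**Figure D2:**
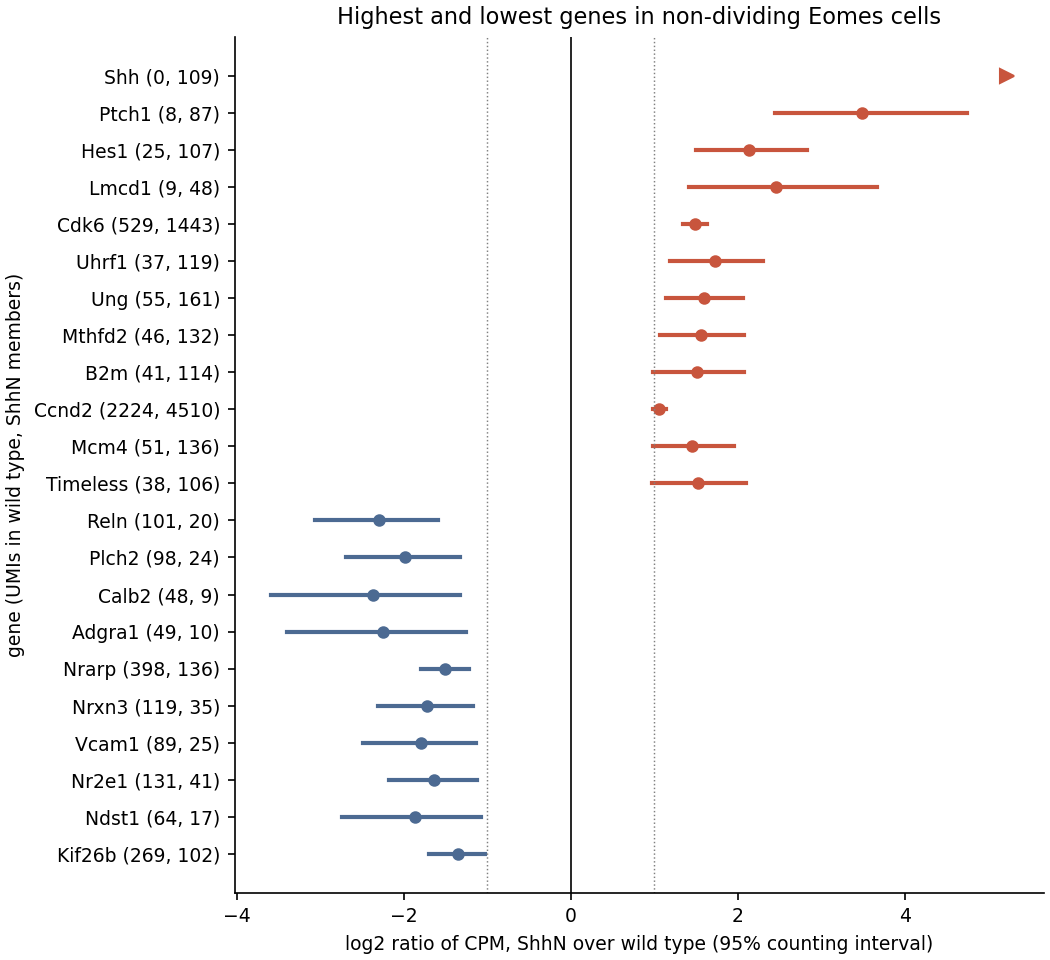
Log2 ratio of CPM, ShhN over wild type, in members for the 12 highest and 10 of the 12 lowest genes past the size rule (dots) with exact 95% counting intervals (lines). Numbers in brackets are UMIs in wild type and ShhN members, and the triangle marks Shh, with 0 wild type UMIs, at the lower bound given by a floor of 3 counts. Dotted lines mark a log2 ratio of 1 in either direction.

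The ligand came first. Shh (chromosome 5, 28456815 to 28467256) had 0 UMIs in 595 wild type members and 109 UMIs in ShhN members, or 27.8 CPM [22.8, 33.6], at least 37.4-fold higher against a floor of 3 counts over the wild type members. Transcripts of the plasmid and of the mouse gene are not told apart by these counts. They lay in 26 of 571 ShhN members (4.55% [2.996, 6.60]), and 39 of the 109 were in 1 cell. The share of all ShhN cells with a Shh UMI was 7.30% [6.75, 7.88]. It was 5.24% in Eomes cells with Mki67 or Top2a, 3.57% in radial glia chosen by counts and 9.59% in Eomes-free cells with at least 2 Sstr2 UMIs. Shh in ShhN barcodes of 1 to 50 UMIs, which hold free RNA, stood at 116 CPM, above its level in members. Members can thus carry Shh UMIs from free RNA. Erythroid transcripts, which these cells do not make, stood in ShhN members at 35.6% of their free RNA level. Free RNA at that share would cover the summed Shh level of members, so that level was not separated from it. At equal depth 18 of 509 ShhN members (3.54%) had a Shh UMI, as did 0 of 33 vascular ShhN cells, which allows a share of up to 9.09%. Before thinning 1 of 37 vascular ShhN cells (2.70%) had one, so the share of members was not separated from that background.

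Targets of the pathway were present in ShhN members at low counts. Ptch1 (chromosome 13, 63508328 to 63573598), the SHH receptor and feedback inhibitor, had 8 UMIs in wild type and 87 in ShhN members, 1.98 against 22.2 CPM, a log2 ratio of 3.48 [2.44, 4.74]. They lay in 8 wild type (1.34%) and 70 ShhN members (12.3%), at most 4 in a cell. Hhip, which sequesters SHH, and Gli1, the transcription factor that reports pathway activity, were not seen in wild type members and had 20 and 13 UMIs in ShhN members, at least 6.86-fold and 4.46-fold higher against the floor. Neither reached 50 UMIs, and the part of free RNA in their counts was not tested. Ccnd1 and Ccnd2, D cyclins of the G1 phase, had log2 ratios of 1.10 [0.74, 1.47] and 1.06 [0.99, 1.14]. Of the 9 genes in the target list 6 were measured, of which Ptch1, Ccnd1 and Ccnd2 passed as higher and none as lower. The share passing as higher over all measured genes was 0.573%. The list median was 1.08 against -0.08 over all measured genes. In members without a UMI of 8 S phase genes (Mcm2 to Mcm6, Rrm2, Uhrf1 and Gmnn) the list median was 0.57. There Ccnd1 (0.79 [0.10, 1.48]) and Ccnd2 (0.51 [0.38, 0.63]) no longer passed, and Ptch1 had only 4 and 21 UMIs (2.87 [1.31, 4.88]). Mycn (0.48 [0.26, 0.69]) and Bcl2 (-0.07 [-0.59, 0.45]) did not pass. Of 11 measured genes for the ligand, receptors and transducers, Shh alone passed. Smo, the transducer, had 185 and 160 UMIs (-0.17 [-0.48, 0.15]), Gli2 47 and 50 (0.13 [-0.47, 0.74]), and Gli3, whose repressor form acts in dorsal cortex, 119 and 63 (-0.88 [-1.34, -0.42]).

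Free RNA moved in the same direction as Ptch1 and Hes1, and as Ccnd2, Cdk6 and Ccnd1. In barcodes of 1 to 50 UMIs, Ptch1 stood at 8.55 CPM in wild type and 31.0 in ShhN cortex, and Hes1 at 6.65 and 26.0 CPM. Ccnd2 stood there at 97.8 and 405 CPM, Cdk6 at 35.1 and 203, and Ccnd1 at 14.2 and 32.7, each below its level in members. Erythroid transcripts, which these cells do not make, stood in members at 21.5% and 35.6% of their free RNA level. Such shares differed by marker set. They were lower for GABAergic interneuron markers (32.5 and 16.8 CPM in members, 339 and 192 in free RNA). They were also lower for microglia markers (0.744 and 1.28 CPM in members, 14.2 and 12.6 in free RNA). The same held for endothelial and mural markers (9.17 and 3.06 CPM in members, 45.6 and 26.0 in free RNA). For choroid plexus markers (13.6 and 1.28 CPM in members, 60.8 and 1.68 in free RNA) the share was close to the erythroid one in wild type. In ShhN cortex it was higher, on only 5 member UMIs. With free RNA subtracted at the erythroid shares, Ptch1 kept 0.592 of its 8 UMIs in wild type members, not above background, and 43.7 of its 87 in ShhN members, at least 15.0-fold higher against the floor of 3 counts. The log2 ratio of Hes1 was then 2.20 [1.46, 3.01]. At equal depth of 4500 UMIs, Ptch1 was seen in 1 of 495 wild type members (0.202%) and 39 of 509 ShhN members (7.66% [5.50, 10.3]). Vascular cells with a Ptch1 UMI numbered 1 of 36 in wild type and 2 of 33 in ShhN cortex (2.78% and 6.06%), so the share of ShhN members was not beyond the counting error of that comparison. Median depth before thinning was 6214 and 6121 UMIs in these members and 9549 and 8333 in the vascular cells.

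Ptch1-carrying and Ptch1-free members of the ShhN library were set side by side as a description within that library. The 70 carrying members had a median of 7054 UMIs and the 501 free ones 5787, so a deeper cell was more often in the carrying class. Ccnd2 stood at 1758 CPM in carrying and 1039 in free members (log2 ratio 0.76 [0.66, 0.86]). Cdk6 stood at 486 against 347 CPM (0.49 [0.30, 0.67]), and the S phase list in sum at 3082 against 1749 CPM (0.82 [0.74, 0.89]). Hhip stood at 16.4 against 3.02 CPM (2.44 [1.02, 3.86]). Neurod6 was lower in carrying members, at 869 against 1071 CPM (-0.30 [-0.44, -0.17]), and Vim, an intermediate filament of radial glia, at 292 against 441 CPM (-0.59 [-0.82, -0.37]). Other genes of the radial glia list went the other way, with ratios of 0.58 [0.20, 0.94] for Sox2 and 1.15 [0.50, 1.77] for Hes1, while the list in sum was lower (-0.24 [-0.34, -0.15]). Of the carrying members 9 had a Shh UMI, and of the free ones 17. Split by Shh itself, Ptch1 stood at 60.2 CPM in the 26 Shh-carrying and 20.3 in the other ShhN members (1.57 [0.50, 2.49]), on 11 and 76 UMIs.

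G1 genes led by counts. Ccnd2 (chromosome 6, 127125162 to 127152193) had 2224 wild type and 4510 ShhN UMIs, or 551 [529, 575] and 1151 CPM, and Cdk6 (chromosome 5, 3341485 to 3531008), a kinase partner of D cyclins, 529 and 1443 UMIs, or 131 [120, 143] and 368 CPM, with a log2 ratio of 1.49 [1.34, 1.64]. Both were spread over many cells. Members with a Ccnd2 UMI numbered 510 of 595 in wild type and 535 of 571 in ShhN cortex, and those with a Cdk6 UMI 260 and 433. The cell richest in Cdk6 held 2.08% of all Cdk6 UMIs in wild type members and 1.04% in ShhN members. Of 13 measured G1 cyclins, kinases and inhibitors, Ccnd1, Ccnd2 and Cdk6 passed as higher and none as lower. The share passing as higher over all measured genes was 0.573%. E2f1, the transcription factor of the G1 to S step, came close at 0.99 [0.70, 1.28]. Cdk4 was within its counting error (-0.03 [-0.10, 0.03]), and the inhibitors Cdkn1c (-0.62 [-0.81, -0.42]) and Cdkn1a (35 and 14 UMIs, -1.28 [-2.29, -0.35]) were lower without passing the rule. In members without a UMI of the 8 S phase genes, Cdk6 kept a log2 ratio of 1.22 [1.005, 1.44].

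Replication genes were the largest listed group among the genes passing as higher. Of 44 S phase genes 42 were measured, 15 passed as higher and none as lower, and 41 of the 42 had a ratio above 0. Over all measured genes 0.573% passed as higher. The list median was 0.97, and its summed level was 1190 CPM in wild type and 1956 in ShhN members. The MCM helicase, which unwinds DNA at the fork, was represented by Mcm2 (138 and 286 UMIs), Mcm3 (66 and 165), Mcm4 (51 and 136), Mcm5 (64 and 150) and Mcm6 (150 and 341), with log2 ratios from 1.09 to 1.46. Uhrf1, which takes part in the copying of DNA methylation to the new strand, had 37 and 119 UMIs (1.73 [1.18, 2.30]). Ung, a uracil glycosylase, had 55 and 161 (1.59 [1.14, 2.06]), and Gmnn, the inhibitor of relicensing, 40 and 109 (1.49 [0.95, 2.05]). Timeless, of the fork protection complex and outside the list, had 38 and 106 UMIs (1.52 [0.97, 2.10]). Pcna, the sliding clamp, did not pass, with 192 and 336 UMIs (0.85 [0.59, 1.11]). When members with a UMI of the 8 S phase genes were left out, 357 wild type and 246 ShhN members remained and the list median was 0.06, as that choice removes the transcripts themselves. The count of genes passing as higher was then 17.

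The promoters of these replication genes are shown because the genes moved together and several carry the same short motif. E2F factors, released when D cyclin kinases act on Rb, bind sites that include TTTCCCGC and TTTGGCGC. Both were searched on either strand in the window from 250 bases before to 50 bases after each gene start (RefSeq, GRCm38.p6). At least 1 of them was in 486 of 27025 genes with a window (1.80%). Of the 15 S phase genes that passed as higher, 12 had a window and 6 held a motif (Cdca7, Hells, Mcm3, Mcm5, Mcm6 and Pola1). Over the whole S phase list the motif was in 12 of 32 windows. Among all named genes passing as higher it was in 7 of 39 windows. None of 53 windows of genes passing as lower held it, which is near the share over all genes. A match is a description of letters, not of binding. The stretches before the gene start follow for Mcm5 (chr8:75109310-75109417, plus strand), Mcm6 (chr1:128359706-128359865, minus strand) and Pola1, the catalytic subunit of DNA polymerase alpha (chrX:93632236-93632343, minus strand), 5′ to 3′ along the gene, with the motif in capitals.
Mcm5: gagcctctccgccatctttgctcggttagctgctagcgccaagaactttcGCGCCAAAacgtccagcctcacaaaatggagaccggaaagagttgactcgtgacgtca
Mcm6: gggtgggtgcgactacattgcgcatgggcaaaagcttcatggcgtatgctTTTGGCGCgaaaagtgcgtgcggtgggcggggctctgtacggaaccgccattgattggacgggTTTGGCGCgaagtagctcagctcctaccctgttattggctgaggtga
Pola1: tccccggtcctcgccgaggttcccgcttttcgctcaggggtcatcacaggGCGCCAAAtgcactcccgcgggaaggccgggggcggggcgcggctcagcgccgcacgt
The GLI motif TGGGTGGTC, searched in the same way, was in 0.289% of all genes' windows and in none of the 5 windows of listed SHH targets, Ptch1 among them. This says only that these letters are not in those windows.

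**Figure D3:**
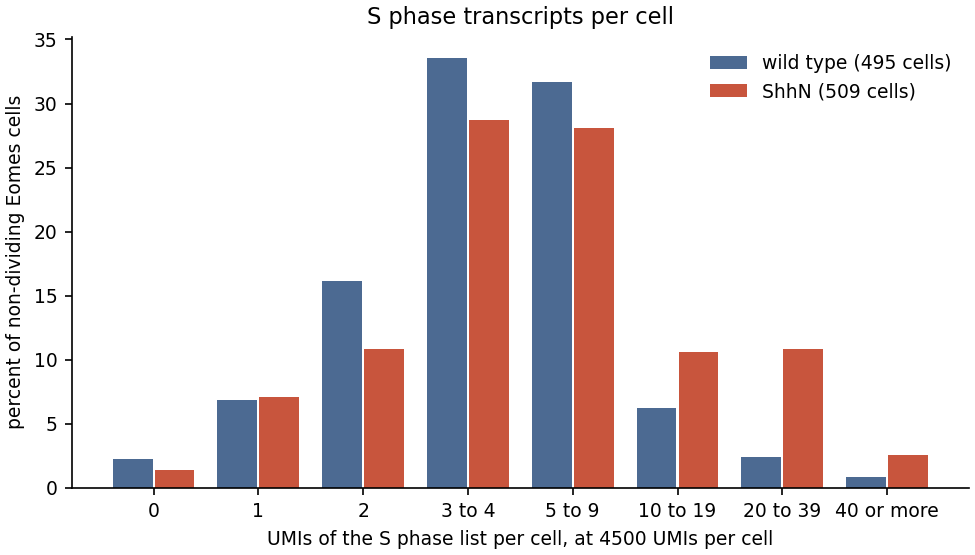
Percent of members by the number of UMIs of the 44 S phase genes per cell, after each cell was thinned to 4500 UMIs (495 wild type and 509 ShhN members). ShhN members were more often in the classes of 10 or more UMIs, while the share with 0 or 1 UMI was alike in both libraries.

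S phase transcripts were not spread evenly over the members. At 4500 UMIs per cell, a member carried 5.41 S phase UMIs on average in wild type and 9.06 in ShhN cortex, with medians of 4 and 5. At least 10 UMIs were found in 47 of 495 wild type members (9.49%) and 122 of 509 ShhN members (24.0%). At least 20 were found in 16 (3.23%) and 68 (13.4%). At least 3 were found in 74.7% [70.7, 78.5] and 80.7% [77.0, 84.1], but also in 44.4% and 60.6% of vascular cells, so that low threshold separates little. At equal depth 35.96% [31.7, 40.4] of members in wild type and 51.7% [47.2, 56.1] in ShhN cortex had a UMI of the 8 genes named above (40.0% and 56.9% before thinning). Cells in S phase can lack Mki67 and Top2a UMIs at this depth, so absence of both does not show that a cell had left the cycle.

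G2 and M phase genes, which the exclusion of Mki67 and Top2a bears on directly, were also more often above than below 0. Of 43 measured genes 5 passed as higher (Ube2c, Cenpa, Cenpe, Ccnb2 and Tpx2) and none as lower, with a median of 0.54. Among all measured genes 0.573% passed as higher. Ube2c, a ubiquitin enzyme of mitotic exit, had 155 and 348 UMIs (1.21 [0.93, 1.49]), and Ccnb2, a mitotic cyclin, 36 and 91 (1.38 [0.81, 1.98]). This list depended on the share of free RNA that was subtracted. At the erythroid shares, which rest on 1 marker set, its median was -0.33, against 0.82 for the S phase list.

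Of 16 measured genes of the intermediate progenitor program none passed in either direction, with a median of -0.10. Over all measured genes 0.573% passed as higher and 0.744% as lower, so none of 16 is near that share. Sstr2 (306 and 314 CPM, 0.03 [-0.08, 0.15]), Insm1, a zinc finger factor of delaminating progenitors (122 and 114 CPM, -0.09 [-0.28, 0.10]), and Igfbpl1 (-0.03 [-0.07, 0.01]) were within their counting error. Mfap4 (chromosome 11, 61485431 to 61488900) was lower, with 1858 wild type and 992 ShhN UMIs, or 461 and 253 CPM (-0.86 [-0.98, -0.75]), as was Neurod4, a proneural factor, with 158 and 77 UMIs (-0.996 [-1.41, -0.59]). Both missed the rule by their size. At equal depth 72.7% [68.6, 76.6] of members in wild type and 59.7% [55.3, 64.0] in ShhN cortex carried Mfap4, as did none of the vascular cells. Before thinning, 3 of 37 vascular ShhN cells (8.11%) and none of 49 in wild type carried it. At equal depth Neurod4 was seen in 17.4% [14.1, 21.0] and 7.47% [5.34, 10.1] of members. Neurog2 was lower by less (334 and 284 CPM, -0.23 [-0.35, -0.12]), and Hes6 likewise (-0.31 [-0.43, -0.19]). Neurog1, related to Neurog2, was higher on few counts (41 and 66 UMIs, 0.73 [0.14, 1.33]).

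Notch genes went both ways. Hes1 (chromosome 16, 30064384 to 30067796), a repressor induced by Notch and, in some cells, by SHH, had 25 wild type and 107 ShhN UMIs, or 6.20 and 27.3 CPM (2.14 [1.50, 2.83]). It was seen in 17 and 68 members. Hes5, the main Notch target of cortical progenitors, had 123 and 125 UMIs (0.06 [-0.31, 0.44]). Nrarp (chromosome 2, 25180758 to 25183339), a feedback inhibitor that Notch induces, had 398 and 136 UMIs, or 98.7 and 34.7 CPM (-1.51 [-1.80, -1.22]), seen in 235 of 595 and 100 of 571 members. Dll1, a ligand, had 114 and 71 (-0.64 [-1.09, -0.20]) and Notch1 382 and 271 (-0.45 [-0.68, -0.23]). Of 12 measured genes in the list, Hes1 passed as higher and Nrarp as lower, with a median of -0.15. Among all measured genes 0.573% passed as higher and 0.744% as lower. In members without a UMI of the 8 S phase genes the log2 ratio was 3.80 [2.12, 6.16] for Hes1, on 3 and 30 UMIs, and -1.27 [-1.68, -0.87] for Nrarp.

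Radial glia genes still detected in these daughters were lower as a list. Of 18 measured genes 15 had a ratio below 0, with a median of -0.55 and a summed level of 3034 CPM in wild type and 2083 in ShhN members. Nr2e1, a nuclear receptor of neural stem cells, had 131 and 41 UMIs (-1.63 [-2.18, -1.12]), and Aldoc, a glycolytic enzyme of glia, 149 and 68 (-1.09 [-1.53, -0.67]). These 2 passed as lower and Hes1, also in this list, as higher, against 0.744% and 0.573% of all measured genes. Aldoc did not pass in members without a UMI of 4 genes of Cajal-Retzius cells, Reln, Calb2, Lhx5 and Trp73 (-0.79 [-1.25, -0.34]). Vim had 2907 and 1637 UMIs (-0.79 [-0.88, -0.70]) and Fabp7, a lipid carrier, 2011 and 1203 (-0.70 [-0.80, -0.60]). In members without a UMI of the 8 S phase genes the ratio of Fabp7 was only -0.19 [-0.34, -0.04]. That of Vim was -0.80 [-0.93, -0.67] there. Sox2 and Pax6 were lower by less (-0.25 each), Sox9 (-0.08 [-0.35, 0.19]) and Ptprz1 (0.00 [-0.23, 0.23]) were within their counting error, and Nes had a ratio of 0.30 [0.00, 0.61]. Vcam1, an adhesion molecule also known from neural stem cells and outside the list, passed as lower too, with 89 and 25 UMIs (-1.79 [-2.49, -1.14]), but not in members without the 8 S phase genes (-0.92 [-1.82, -0.09]).

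Of 15 measured newborn neuron genes none passed, with a median of 0.01. This is near the share over all measured genes, 0.573% higher and 0.744% lower. Sox4 stood at 4049 and 4053 CPM and Sox11 at 4323 and 4547. Neurod6 (887 and 1039 CPM, 0.23 [0.16, 0.29]) and Tubb3 (1243 and 1529 CPM, 0.30 [0.24, 0.35]) were slightly higher, and Unc5d, a netrin receptor of multipolar cells, lower (153 and 103 CPM, -0.58 [-0.76, -0.39]). Tfap2d had 59 and 108 UMIs (0.91 [0.44, 1.40]). Rnd3, a small GTPase that acts in neuronal migration, was the only gene of 14 in the migration list past the rule, with 332 and 648 UMIs (1.01 [0.81, 1.20]), and it missed the rule without the 4 Cajal-Retzius genes (0.95 [0.75, 1.15]). No upper layer factor of 8 measured passed, which is also near the share over all genes. Among 8 deep layer factors Foxp2 passed as lower (275 and 132 UMIs, -1.02 [-1.33, -0.71]).

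**Figure D4:**
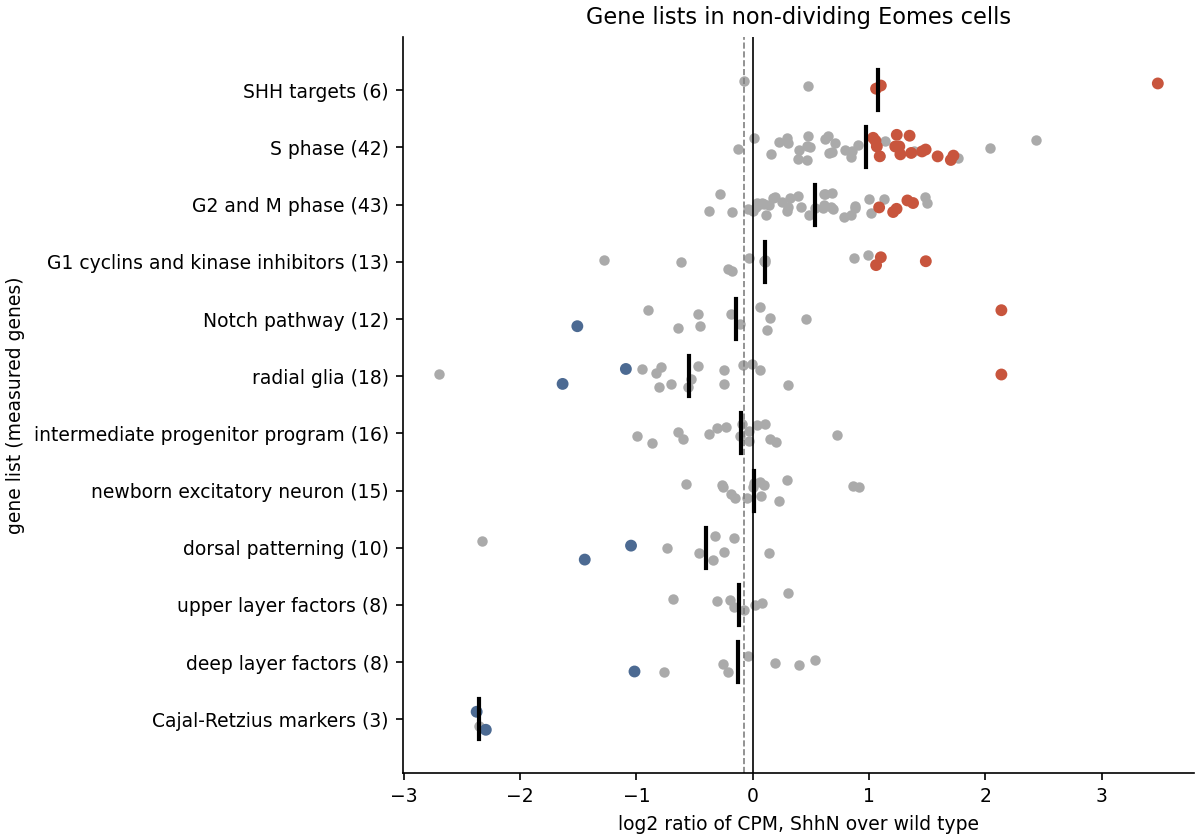
Log2 ratio of CPM, ShhN over wild type, for each measured gene of 12 lists in members. Coloured dots passed the size rule (red higher, blue lower), black bars are list medians and the dashed line is the median of all measured genes (-0.08). Genes with 0 UMIs in a library are not drawn. The S phase dots lie almost all above 0, with a median of 0.97, and the radial glia dots mostly below, with a median of -0.55.

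Progenitor and neuronal transcripts were found together in most members of both libraries. At equal depth, a progenitor gene (Sox2, Pax6, Hes5 or Slc1a3) together with a neuronal gene (Neurod2, Neurod6, Tbr1 or Unc5d) was found in 68.7% [64.4, 72.8] of members in wild type and 64.2% [59.9, 68.4] in ShhN cortex. Progenitor genes alone were seen in 5.66% and 5.11%, and neuronal genes alone in 24.8% [21.1, 28.9] and 30.5% [26.5, 34.7]. The intervals of each pair overlap, and no difference was tested. Levels were compared in the same classes read without thinning. Cdk6 was higher in each, with log2 ratios of 2.12 [1.34, 2.98] among the 25 and 23 members that then had progenitor genes alone, 1.498 [1.34, 1.66] in those with both, and 1.30 [0.95, 1.67] in those with neuronal genes alone. Ccnd2 had ratios of 1.76 [1.43, 2.10], 1.09 [1.01, 1.17] and 0.72 [0.53, 0.92] in the same order. Mfap4 had ratios of -0.36 [-1.10, 0.36], -0.79 [-0.92, -0.67] and -1.26 [-1.54, -0.99].

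Genes of the medial cortex and of Cajal-Retzius cells were lower in ShhN members. Reln (chromosome 5, 21884454 to 22344702), the secreted guide of migrating neurons, had 101 wild type and 20 ShhN UMIs (-2.29 [-3.07, -1.59]), and Calb2, a calcium-binding protein, 48 and 9 (-2.37 [-3.59, -1.33]). These UMIs were concentrated: Reln was seen in 34 of 595 and 16 of 571 members, and 1 wild type cell held 31.7% of the wild type Reln UMIs. Over the 6 Cajal-Retzius markers the summed level was 46.6 and 9.44 CPM in members and 104 and 47.0 CPM in free RNA, with Trp73, a defining marker, at 5 and 0 UMIs. Their part in the Reln result was not tested. The WNT agonist Rspo3 had 147 and 66 UMIs, Wnt5a 75 and 26, the WNT effector Lef1 56 and 20 (-1.44 [-2.26, -0.68]), Prox1, a factor of the dentate gyrus, 119 and 57, and Nr2f2, a nuclear receptor of caudal and medial cortex, 221 and 104 (-1.05 [-1.40, -0.70]). These 5 genes were set together after their values were seen. In members without a UMI of the 4 Cajal-Retzius genes (541 and 551), Rspo3 had 51 and 61 UMIs (0.16 [-0.40, 0.73]) and was no longer lower. Wnt5a (-1.07 [-1.86, -0.31]), Lef1 (-0.94 [-1.83, -0.09]) and Prox1 (-0.64 [-1.17, -0.11]) no longer passed there, while Nr2f2 did (-1.03 [-1.41, -0.66]). At equal depth 34.1% [29.97, 38.5] of members in wild type and 18.7% [15.4, 22.3] in ShhN cortex carried at least 1 of them. Of the 101 wild type Reln UMIs 91 lay in members that carried one of them, and without those members Reln had 10 and 13 UMIs (0.07 [-1.24, 1.41]). Without them Ccnd2 (1.13 [1.04, 1.23]), Cdk6 (1.28 [1.11, 1.45]), Mfap4 (-0.94 [-1.09, -0.80]) and Nrarp (-1.61 [-1.98, -1.26]) kept their direction. The labels do not give which part of the cortex was taken from each embryo, and dissection and treatment cannot be told apart here.

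Of 10 measured dorsal patterning genes, Nr2f2 and Lef1 passed as lower (Lef1 not without the Cajal-Retzius genes) and none as higher, with a median of -0.40. Over all measured genes 0.744% passed as lower and 0.573% as higher. Dmrta2 had 631 and 367 UMIs (-0.74 [-0.93, -0.55]) and Emx1 950 and 669 (-0.46 [-0.61, -0.32]). Ventral genes outside the excluded ones stayed rare: of 5 measured none passed, near the share over all genes, and Gsx2 had 1 and 3 UMIs. Fgf15, a ligand that SHH signalling is known to induce, had 0 and 30 UMIs, at least 10.3-fold higher against the floor, in 29 ShhN members. Of the markers of other cells, the 6 erythroid genes, mostly globins, summed to 4937 CPM in wild type and 4549 in ShhN members, and to 22968 and 12787 CPM in free RNA. The 11 GABAergic interneuron markers summed to 32.5 and 16.8 CPM, the 8 microglia markers to 0.744 and 1.28, and the 8 endothelial and mural markers to 9.17 and 3.06. In free RNA they summed, in the same order, to 339 and 192, 14.2 and 12.6, and 45.6 and 26.0 CPM. The choroid plexus gene Ttr had 44 wild type UMIs and 1 ShhN UMI, with 57.9 and 0 CPM in free RNA, and its part in other results was not tested.

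**Figure D5:**
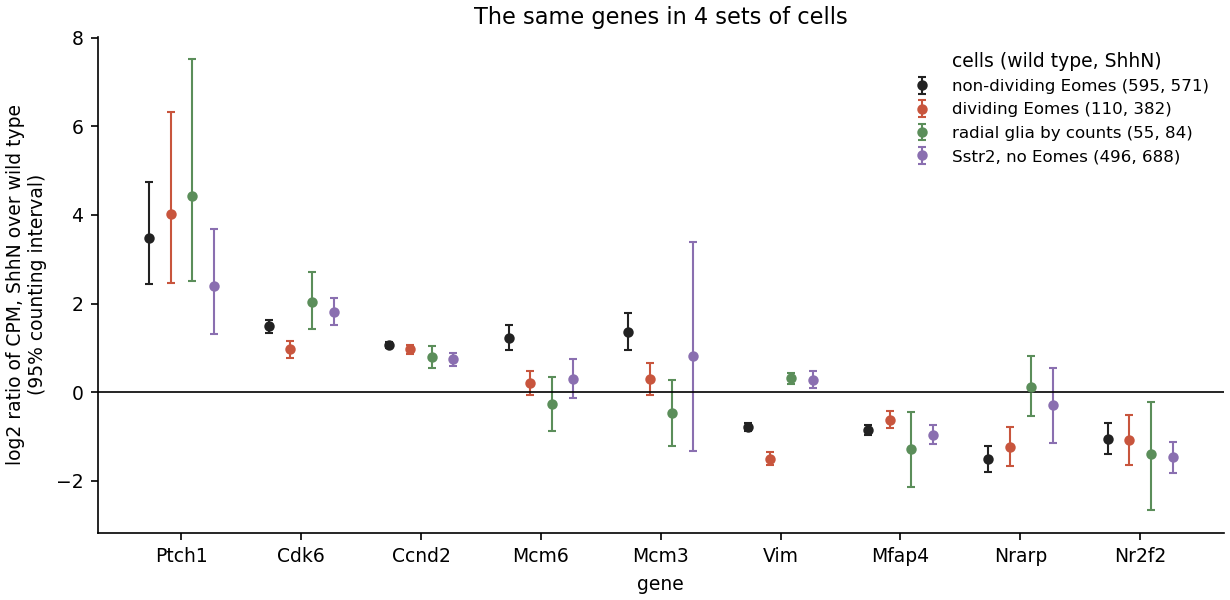
Log2 ratio of CPM, ShhN over wild type, with exact 95% counting intervals, for 9 genes in members and in 3 other sets of cells. Cell numbers (wild type, ShhN) are in the legend. Ptch1, Cdk6 and Ccnd2 lie above 0 in all 4 sets, while the intervals of Mcm3 and Mcm6 lie above 0 in members and hold 0 in the 3 other sets. The S phase list in sum, not drawn, was also above 0 in dividing Eomes cells and radial glia.

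The same genes were read in 3 neighbouring sets: Eomes cells with a Mki67 or Top2a UMI (110 wild type and 382 ShhN cells), radial glia with at least 2 Slc1a3 UMIs and Sox2 or Hes5 (55 and 84), and Eomes-free cells with at least 2 Sstr2 UMIs (496 and 688). No difference between sets was tested. Mcm6 had a log2 ratio of 1.23 [0.94, 1.51] in members, 0.21 [-0.06, 0.49] in dividing Eomes cells, -0.26 [-0.87, 0.35] in radial glia and 0.30 [-0.14, 0.76] in Sstr2 cells. Its level was 37.2 and 87.0 CPM in members and 132 and 152 in dividing Eomes cells, so ShhN members lay between wild type members and dividing cells. The S phase list in sum had a log2 ratio of 0.72 [0.67, 0.77] in members and 0.28 [0.23, 0.32] in dividing Eomes cells. It was 0.29 [0.16, 0.42] in radial glia and 0.03 [-0.04, 0.10] in Sstr2 cells. For the G2 and M phase list these values were, in the same order, 0.49 [0.44, 0.54], 0.34 [0.32, 0.37], -0.11 [-0.22, 0.00] and 0.40 [0.33, 0.46]. Mfap4 was lower in each set, at -0.86 in members, -0.62 [-0.82, -0.43] in dividing Eomes cells, -1.28 [-2.15, -0.45] in radial glia and -0.96 [-1.18, -0.74] in Sstr2 cells. Vim was lower in members and in dividing Eomes cells (-1.50 [-1.64, -1.36]) and higher in radial glia (0.31 [0.18, 0.44]) and Sstr2 cells (0.28 [0.09, 0.47]). Nrarp was lower in members and dividing Eomes cells (-1.23 [-1.66, -0.79]), with intervals that held 0 in radial glia (0.13 [-0.54, 0.81]) and Sstr2 cells (-0.30 [-1.14, 0.55]). Hes1 had a ratio of 2.03 [1.22, 2.97] in dividing Eomes cells and 0.45 [-0.08, 0.995] in radial glia, where its wild type level was 117 CPM against 6.20 in members. Neurod4, lower in members, had a ratio of 0.16 [-0.51, 0.88] in dividing Eomes cells.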

How the data were processed

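The authors deposited 1 matrix of UMI counts per gene and barcode for each group, without normalization. Cell Ranger, StringTie, Seurat 3 and mm10 were named in the submitters' processing notes, without their roles. File prefixes for control and experiment gave the groups. The members and gene lists were chosen with earlier results of these data known. UMIs were summed over members and scaled to their total as CPM. Poisson, conditional binomial and Clopper-Pearson intervals are exact, at 95%, and cover counting error only. Named genes were the 12 highest and 12 lowest past the size rule by the interval bound nearest 0, without rule genes, globins, mitochondrial and sex-linked genes and unnamed models, plus members of 24 fixed lists. Medial pallium genes were grouped, and Vcam1 singled out, after their values were seen. Some genes are not reported here. Shares of cells were read after thinning to 4500 UMIs. Doublets were marked with scrublet (scanpy 1.11.5, expected rate 6%) and kept. TMM factors came from edgeR 4.0.16, used for scaling only. The ratio and size rule were tested on simulated data. Gene coordinates are from GENCODE M21 (GRCm38).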

Additional observations from a re-analysis of the deposited data

How the results depend on the processing

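Alternatives covered the thresholds on UMIs, mitochondrial share and Eomes, doublets, thinning, further mitotic genes, Olig or Dlx cells, Shh-carrying cells, scaling, weighting, free RNA and count minimums. Leaving out cells with S phase, Cajal-Retzius or medial pallium genes, and subtracting free RNA at the erythroid share, were added after seeing the data. Of 128 recomputed values of the main results 115 stayed within their limits, 12 moved and 1 reversed. Against 60 genes higher, 39 passed with more mitotic genes at 0, 22 with at least 200 UMIs per gene and 17 with the 8 S phase genes at 0. Against 78 lower, 51 passed with TMM scaling, 26 with at least 200 UMIs per gene, 31 with S phase genes at 0 and 200 with free RNA subtracted at the erythroid share. S phase genes at 0 gave medians of 0.57 for SHH targets and 0.056 for the S phase list. The G2 and M phase median was -0.33 with free RNA subtracted at the erythroid share. The ratio of member shares was 0.695 with more mitotic genes at 0, 0.599 with S phase genes at 0, and 1.02 with medial pallium genes at 0, where the shares were 5.02% and 5.11%. The log2 ratio of Reln was then 0.065 [-1.24, 1.41], on 10 and 13 UMIs. Leaving out S phase cells removes replication transcripts by construction, leaving out medial pallium genes, which were chosen for being lower, raises the ratio of shares by construction, a higher count minimum tests fewer genes, and the cause of the other changes was not tested. Over the settings run, log2 ratios ranged from 0.51 to 1.20 for Ccnd2, 1.22 to 1.58 for Cdk6, 1.63 to 3.80 for Hes1, -0.94 to -0.66 for Mfap4 and -1.61 to -1.27 for Nrarp. No paired analysis was possible because each group was deposited as 1 matrix in which the replicates are not told apart.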
